A study of Mus musculus with 16 samples.

Results

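The 2 Wnt-raised states of day 3 neural differentiation in this series were compared by ATAC-seq, which maps open chromatin by the insertion of a transposase. One state was wild type (WT) cells given CHIR99021 (CHIR), an inhibitor of GSK3 that raises Wnt/β-catenin signalling. The other was untreated Tet1 knockout (KO) cells. The comparison used 4 of 16 libraries, 2 for each state. In each library the 50000 distinct peak intervals with the highest −log10 p were kept, and a consensus region was open in a library when at least 1 bp of it was covered by a kept interval. A region was called gained when it was open in both CHIR libraries and in neither KO library, and lost when the reverse held. Of 80565 consensus regions, 7253 were gained (9 percent) and 5419 were lost (6.73 percent).

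All cells were mouse embryonic stem cell lines of the B6129S6F1 Tet1<tm1Koh> background, grown on feeders, depleted of them, and differentiated toward anterior neural progenitors. The CHIR libraries came from the lines WT7 and WT34 on day 3, after 3 µM CHIR from day 2. The KO libraries came from the lines KO1 and KO15 on day 3 without inhibitor. The other 12 libraries, which the calls did not use, were untreated WT (lines WT70 and WT72), catalytic mutant (MUT, clones CM59 and CM69 made from WT7) and KO cells (KO1 and KO15) on day 2, WT and MUT cells on day 3, and KO cells given 5 µM of the Wnt inhibitor XAV939 (XAV) from day 2 to day 3. Each of the 8 groups held 2 libraries, from 2 lines or, for MUT, from 2 clones of WT7. Nothing in the labels says whether they were cultured separately. Per the methods, WT and KO lines were derived as littermates, but which WT line goes with which KO line was not stated in the sources used. Genotype, treatment and line all differed between the CHIR and the KO libraries and cannot be told apart in the direct comparison. No vehicle-only library was labelled, and untreated WT7 and WT34 were not analysed here.

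In the canonical Wnt pathway, inhibition of GSK3 stabilises β-catenin, which binds TCF and LEF factors at their target genes. In the early embryo this signal, with Nodal, induces the primitive streak. The anterior streak gives rise to node and definitive endoderm, the posterior streak to mesoderm, and a later population of neuromesodermal progenitors to trunk neural tube and somites. TET1 is a dioxygenase that oxidises 5-methylcytosine and also acts without its catalytic function.

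To show what the called regions look like, the central 300 bp of 11 of them are printed below from the plus strand of GRCm38 (mm10). Capitals mark every match, on either strand, to any of 20 short motifs searched. The first 3 gained and the first 4 lost regions are among the strongest, 1 per gene, near genes of the lists described further on that had no deposited peak at all in the libraries where they were closed. The last 2 of each direction were chosen after the motif shares were seen, as the strongest gained regions with a TCF/LEF match and the strongest lost regions with the E-box CACCTG.
Lama1, gained, chr17:67728856-67729155: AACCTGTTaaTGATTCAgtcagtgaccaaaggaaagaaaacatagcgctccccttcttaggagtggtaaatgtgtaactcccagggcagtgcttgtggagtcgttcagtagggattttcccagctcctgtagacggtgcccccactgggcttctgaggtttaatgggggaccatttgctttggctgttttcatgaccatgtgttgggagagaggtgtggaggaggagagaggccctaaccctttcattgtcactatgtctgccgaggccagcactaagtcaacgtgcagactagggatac
Fgfr1, gained, chr8:25413841-25414140: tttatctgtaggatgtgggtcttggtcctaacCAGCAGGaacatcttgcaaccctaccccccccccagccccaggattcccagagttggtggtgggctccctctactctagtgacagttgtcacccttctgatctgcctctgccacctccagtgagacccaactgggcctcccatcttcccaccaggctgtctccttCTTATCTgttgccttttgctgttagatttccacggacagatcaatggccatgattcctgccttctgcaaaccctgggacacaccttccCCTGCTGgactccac
Tead1, gained, chr7:112753868-112754167: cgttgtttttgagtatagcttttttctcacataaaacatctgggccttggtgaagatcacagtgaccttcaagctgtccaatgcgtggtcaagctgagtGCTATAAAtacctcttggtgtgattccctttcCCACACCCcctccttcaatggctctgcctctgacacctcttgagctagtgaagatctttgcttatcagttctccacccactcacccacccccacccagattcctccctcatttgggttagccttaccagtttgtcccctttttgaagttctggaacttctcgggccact
Axin2, gained, chr11:108897658-108897957: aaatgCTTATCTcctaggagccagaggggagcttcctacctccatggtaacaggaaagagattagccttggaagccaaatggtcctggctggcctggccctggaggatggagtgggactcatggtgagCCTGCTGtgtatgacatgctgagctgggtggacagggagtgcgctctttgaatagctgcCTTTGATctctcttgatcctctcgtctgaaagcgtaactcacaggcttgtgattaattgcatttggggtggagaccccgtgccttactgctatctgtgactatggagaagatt
Smad1, gained, chr8:79455786-79456085: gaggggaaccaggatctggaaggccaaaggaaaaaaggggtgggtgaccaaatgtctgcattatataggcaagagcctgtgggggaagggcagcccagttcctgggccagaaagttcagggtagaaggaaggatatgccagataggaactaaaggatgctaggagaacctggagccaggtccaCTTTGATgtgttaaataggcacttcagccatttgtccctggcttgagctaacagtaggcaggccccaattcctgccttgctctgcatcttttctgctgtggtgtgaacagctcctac

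The gained region near Axin2, a negative feedback target of Wnt, lay 22541 bp upstream of the transcription start site (TSS), between genes, and held 1 TCF/LEF, 1 GATA and 1 ZIC match. That near Smad1, a BMP effector, lay 56418 bp upstream and held 1 TCF/LEF match. Regions in introns of Lama1 (a laminin chain) and Tead1 (a YAP partner) and the intronic region 99663 bp upstream of Fgfr1 (an FGF receptor) held no TCF/LEF match in this window.
Foxa2, lost, chr2:148084806-148085105: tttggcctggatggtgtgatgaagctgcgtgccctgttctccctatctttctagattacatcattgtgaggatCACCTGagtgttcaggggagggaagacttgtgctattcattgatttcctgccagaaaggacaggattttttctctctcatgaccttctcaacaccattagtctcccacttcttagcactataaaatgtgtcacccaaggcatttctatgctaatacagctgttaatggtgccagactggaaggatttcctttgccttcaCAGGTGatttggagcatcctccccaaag
Utf1, lost, chr7:139945515-139945814: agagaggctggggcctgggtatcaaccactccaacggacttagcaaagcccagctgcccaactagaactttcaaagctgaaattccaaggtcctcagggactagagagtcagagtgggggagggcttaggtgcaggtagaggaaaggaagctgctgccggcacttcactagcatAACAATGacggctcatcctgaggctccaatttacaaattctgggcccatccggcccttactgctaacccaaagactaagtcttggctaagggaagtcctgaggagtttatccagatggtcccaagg
Dhrs3, lost, chr4:144898309-144898608: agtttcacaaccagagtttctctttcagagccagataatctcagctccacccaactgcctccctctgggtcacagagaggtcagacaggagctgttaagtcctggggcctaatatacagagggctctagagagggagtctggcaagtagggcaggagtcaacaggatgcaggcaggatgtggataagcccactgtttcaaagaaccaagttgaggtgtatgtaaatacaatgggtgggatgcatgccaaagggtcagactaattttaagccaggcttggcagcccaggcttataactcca
Lgr5, lost, chr10:115475048-115475347: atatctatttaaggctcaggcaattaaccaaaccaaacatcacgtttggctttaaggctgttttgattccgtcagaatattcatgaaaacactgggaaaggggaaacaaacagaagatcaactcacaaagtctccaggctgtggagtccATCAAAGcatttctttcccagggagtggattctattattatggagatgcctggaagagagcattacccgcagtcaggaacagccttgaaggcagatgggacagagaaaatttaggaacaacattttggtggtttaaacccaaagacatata
Grhl2, lost, chr15:37197988-37198287: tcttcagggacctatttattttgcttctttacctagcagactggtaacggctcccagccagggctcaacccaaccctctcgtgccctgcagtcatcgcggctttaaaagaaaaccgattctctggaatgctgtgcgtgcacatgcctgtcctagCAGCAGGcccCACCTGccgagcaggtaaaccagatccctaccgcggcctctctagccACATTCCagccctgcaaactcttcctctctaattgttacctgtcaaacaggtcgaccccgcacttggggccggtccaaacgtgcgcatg
Foxj1, lost, chr11:116327211-116327510: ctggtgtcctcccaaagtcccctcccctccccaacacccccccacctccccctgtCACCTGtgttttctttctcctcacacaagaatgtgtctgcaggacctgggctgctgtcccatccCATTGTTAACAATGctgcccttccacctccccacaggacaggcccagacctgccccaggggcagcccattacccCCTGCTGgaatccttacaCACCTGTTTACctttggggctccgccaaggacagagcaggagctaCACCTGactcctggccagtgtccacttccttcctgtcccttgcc

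The lost region 37987 bp upstream of Foxa2, the forkhead factor of node and endoderm, held 2 CACCTG matches and no other. That near Foxj1, a factor of motile cilia, held 3 CACCTG, 2 SOX, 1 ZIC and 1 forkhead match, with 1 CACCTG and the forkhead match overlapping. The lost region near Grhl2 held 1 CACCTG, 1 ZIC and 1 TEAD match. That in an exon annotated upstream of Lgr5, the R-spondin receptor, held 1 TCF/LEF match, that near Utf1 1 SOX match, and that near Dhrs3, a retinaldehyde reductase, none. A match here is a run of letters and not a shown binding site.

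The labels were first checked at Tet1. A consensus region in a Tet1 intron, 3029 bp downstream of a TSS, had a deposited peak in all 10 libraries of WT and MUT lines, with ranks by −log10 p from 31346 to 48341, and none in the 6 libraries of KO lines. It was gained by the rule. A second Tet1 region, in an intron and 3905 bp upstream of another TSS, was lost: its ranks were 137714 and 92301 in the CHIR libraries, 16123 and 18486 in KO, and 7668 and 7837 in untreated WT on day 3. Thus the first region followed the genotype in every library, and the second was open in all but the CHIR libraries.

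The libraries differed in depth, which the peak lists show only indirectly. They held 135359 to 219047 distinct intervals each, the fewest in the second KO day 3 library (KO15). The −log10 p of the last interval kept was 10.94 and 11.09 in the CHIR libraries and 12.79 and 6.84 in the KO libraries, and the first interval left out had the same value to 2 decimals in each. The fixed number of intervals sets the libraries level in count but means that an interval that enters the kept set displaces another. Read counts were not used, so no error on a single region's accessibility is given, and 2 libraries against 2 cannot give an exact permutation p below 0.333.

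To place the counts of gained and lost regions against the spread between libraries of 1 state, the same rule was applied to pairs that mixed the states. CHIR 1 with KO 1 against CHIR 2 with KO 2 gave 880 and 684 regions, together 1.94 percent of all. CHIR 1 with KO 2 against CHIR 2 with KO 1 gave 703 and 862, also 1.94 percent together. The labelled pairing gave 12672 in both directions, 8.1 times the larger mixed total. Of all consensus regions, 33524 (41.6 percent) were open in all 4 libraries. The kept intervals of the 2 CHIR libraries shared 0.708 of their joint bases, those of the 2 KO libraries 0.657, and those of a CHIR and a KO library 0.554 to 0.59. The states were therefore further apart than the libraries of either state.

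**Figure D1:**
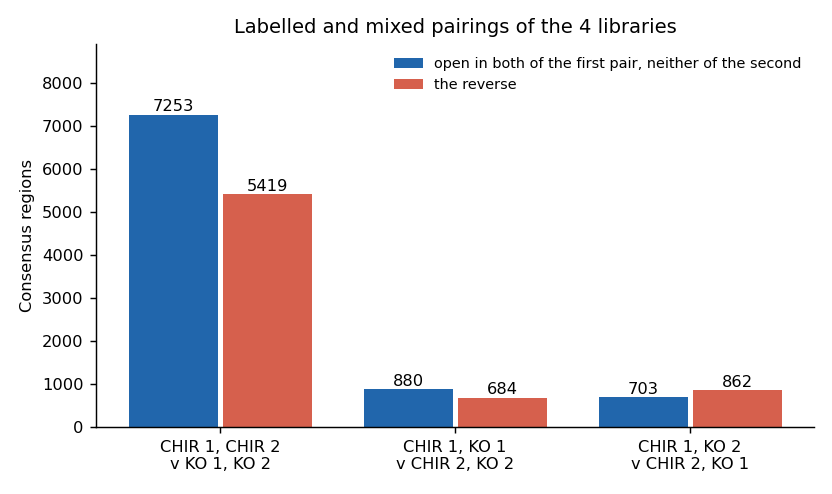
Consensus regions (y axis, count) open in both libraries of one pair and neither of the other, for the labelled pairing and both mixed pairings of the 4 libraries (x axis). The labelled pairing holds 7253 and 5419 regions, and no bar of a mixed pairing passes 880.

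The 2 directions differed in how fully the regions closed. Of the gained regions, 2199 (30.3%) had no deposited peak of any strength in either KO library. Of the lost regions, 347 (6.4%) had none in either CHIR library. The gained regions lacked a peak in 33.4% of cases in KO 1 and in 57% in KO 2, the library with the fewest intervals, and the lost regions in 15.7% in CHIR 1 and 12% in CHIR 2. Where a weaker peak was listed, its median rank was 81818 and 78923 in the KO libraries at gained regions, and 73410 and 72922 in the CHIR libraries at lost regions. Most lost regions were thus still listed below the 50000 kept. In 1861 lost regions (34.3%) and 1277 gained regions (17.6%) the better closed library ranked no lower than 60000.

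The called regions were next read in the 12 libraries that the rule did not use. Gained regions were open in 11.3% ± 0.682 (SD, n = 2) of cases in untreated WT on day 3, 9.38% ± 1.54 in MUT on day 3 and 9.24% ± 0.429 in KO with XAV. On day 2 the shares were 11.1% ± 0.322 in WT, 9.17% ± 0.253 in MUT and 8.38% ± 0.331 in KO. Of the gained regions, 5474 of 7253 (75.5%) were open in none of the 12. They entered the consensus, which asks for 2 libraries, only through the CHIR libraries that define the call. The low shares elsewhere were thus partly built into the selection. Lost regions were open in 63.9% ± 0.157 of cases in WT, 68.1% ± 1.85 in MUT and 66.3% ± 0.117 in KO with XAV on day 3, and in 61.6% ± 2.48, 64.8% ± 1.96 and 63.4% ± 3.93 of cases in WT, MUT and KO on day 2. Of the lost regions, 1676 (30.9%) were open in all 12 and 527 (9.73%) in none, the latter entering only through the KO libraries. Over all consensus regions the share open was 61.4% to 65.1% per library, so the lost regions were about as often open in the 12 libraries as any region.

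**Figure D2:**
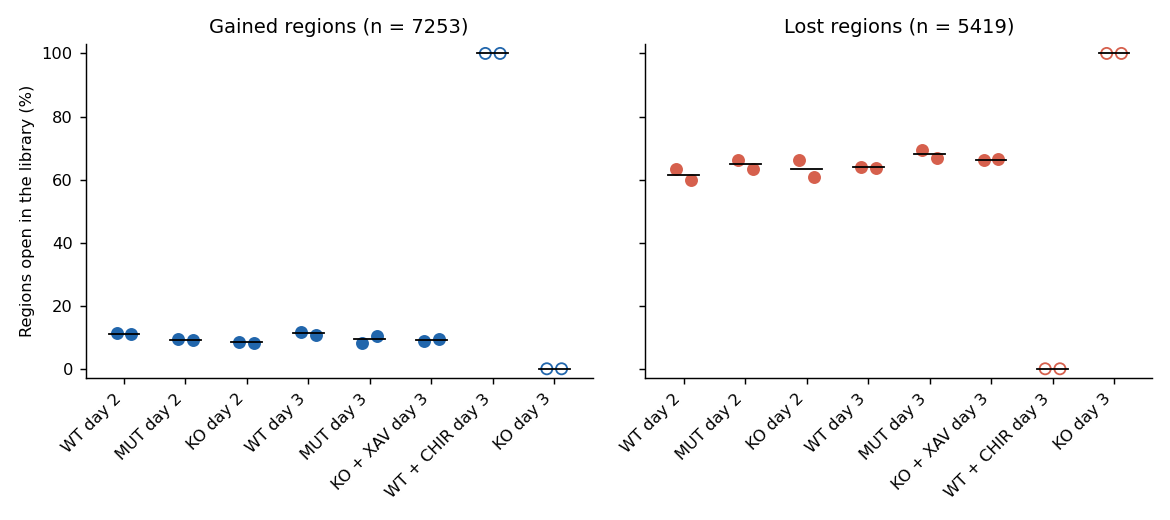
Share of gained (left) and lost (right) regions open in each library (y axis, percent) by group (x axis). Each point is a library, lines are group means, and open symbols mark the 4 libraries that set the calls. The 12 other libraries lie between 8.15 and 11.8% at gained regions and between 59.8 and 69.4% at lost regions.

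Whether genotype or day moved these shares was tested in the 12 libraries with a two-sided exact permutation test, adjusted over 4 tests. The KO lines (day 2 and XAV, n = 4) had gained regions open in 8.81% ± 0.584 of cases and WT and MUT (n = 8) in 10.2% ± 1.22, a difference of -1.43 points (exact permutation p = 0.0626, adjusted p = 0.251). At lost regions the values were 64.9% ± 2.81 and 64.6% ± 2.86, a difference of 0.281 points (exact permutation p = 0.925, adjusted p = 0.925). Day 3 against day 2 in WT and MUT (n = 4 each) differed by 2.81 points at lost regions (66% ± 2.65 against 63.2% ± 2.6, exact permutation p = 0.143, adjusted p = 0.286) and by 0.183 points at gained regions (10.3% ± 1.47 against 10.1% ± 1.15, exact permutation p = 0.914, adjusted p = 0.925). None passed 0.05, and neither did any unadjusted value. Libraries of 1 line on different days entered these tests as separate samples, and so did the MUT clones, which share the parent WT7. The KO libraries here came from KO1 and KO15, the lines whose untreated day 3 libraries set the calls. Those of day 3 here were given XAV, and no WT or MUT library was. The genotype tests therefore cannot tell genotype from line or from XAV.

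Untreated WT on day 3 splits the called regions by which state departed from it, with the limit that its lines, WT70 and WT72, were not those given CHIR. How WT70 and WT72 were derived, and whether they relate to WT7, was not stated in the sources used. Of the gained regions, 6130 (84.5%) were closed in both untreated WT libraries and are called CHIR-opened, while 513 (7.07%) were open in both and are called KO-closed. Of the lost regions, 2877 (53.1%) were open in both and are called CHIR-closed, and 1370 (25.3%) were closed in both and are called KO-opened. By these counts more regions departed from untreated WT with CHIR than in KO. The fixed number of intervals kept means that opened regions displace others. How much of the CHIR-closed count came from this cut was not tested. The KO-opened regions were open in 28.3% and 28.6% of cases in the XAV-treated KO libraries, in 28.6% and 20.7% in MUT on day 3 and in 30.3% and 26.1% in KO on day 2. In the other day 2 libraries they were open in 22.6% and 20% (WT) and in 27.1% and 25% (MUT). The KO-closed regions were open in 55.4% and 61.4% in the XAV libraries and in 49.7% and 48.5% in KO on day 2. Their shares were 56.1% and 68.8% in MUT on day 3. On day 2 they were 71.5% and 68.4% in WT and 61.6% and 58.1% in MUT.

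Regions that followed the Tet1 genotype in all 16 libraries were few. Of the gained regions 3 were open in all 10 libraries of WT and MUT lines and in none of the 6 of KO lines. They lay in the Tet1 intron named above, on the same chromosome 10 nearest Aldh8a1, and on chromosome 18. Of the lost regions 2 were open in all 6 KO-line libraries and no other, in an intron upstream of Dmrt3 on chromosome 19 and between genes on chromosome 3. These 5 regions were named after their values were seen.

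Both kinds of region were mostly distal, more than 3 kb from any annotated TSS. The distal share was 77.3% of gained and 75.2% of lost regions, against 39.3% of the regions open in all 4 libraries and 59.1% of all consensus regions. Introns held 39.3% of gained and 34.6% of lost regions, and intergenic sequence 35% and 37.6%. In the central 300 bp the median GC content was 52.7% in gained, 50% in lost and 58.3% in shared regions, and the mean number of CpG dinucleotides was 4.45, 4.29 and 15.2. Gained and lost regions thus resembled each other in position and both differed from the shared ones, which were rich in promoters and CpG. By chromosome, gained regions made up 7.42% (X) to 10.5% (18) and lost regions 5.29% (8) to 8.18% (10), leaving out Y with 24 regions.

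In percentage points, the sequence of the 2 classes differed most at 2 of 20 motifs. The E-box CACCTG, read by SNAI and ZEB repressors and other E-box factors, was present in 2403 lost regions (44.3%) and 1180 gained regions (16.3%), against 28.7% of all consensus regions. The TCF/LEF letters CTTTGAT were present in 985 gained regions (13.6%) and 250 lost regions (4.61%), against 5% of all. So each motif was more frequent than in all regions in one class and less frequent in the other. In distal regions alone the shares were 15.9% and 44.3% for CACCTG and 14.2% and 4.54% for CTTTGAT.

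Among the other motifs, T-box AGGTGTGA (4.43% of gained, 2.66% of lost, 2% of all regions) and AGATAAG, read by GATA factors (6.04%, 3.73% and 3.29%), were more frequent in gained regions. AP-1 (10.6%, 16.9%, 11.8%), forkhead TGTTTAC (3.2%, 7.4%, 3.87%), OCT ATGCAAAT (1.72%, 5.09%, 2.75%), TEAD ACATTCC (5.02%, 8.65%, 5.69%), SOX CATTGTT (2.65%, 5.43%, 3.75%), the paired-like homeobox TAATCC of OTX and GSC (7.67%, 12.3%, 8.63%) and GRHL AACCNGTT (1.72%, 3.69%, 2.46%) were more frequent in lost regions. The letters of CDX and posterior HOX, TTTATNGC, hardly differed (2.41% and 2.07%), nor did TAATTA (6.16% and 5.81%). By ratio of gained to lost share, OCT (0.338) was further from equal than CACCTG (0.367) or CTTTGAT (2.94). Thus 7 of 20 motifs were more frequent in gained regions and 13 in lost regions, and each kept its sign in distal regions and in the central 100 bp.

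The split by untreated WT separated some of these motifs further. CTTTGAT was in 14.9% of CHIR-opened, 6.28% of KO-opened, 3.89% of CHIR-closed and 3.7% of KO-closed regions. AGGTGTGA was in 5.07% of CHIR-opened and 4.96% of KO-opened regions, and in 1.81% and 0.39% of CHIR-closed and KO-closed ones. Forkhead TGTTTAC was in 11% of KO-opened, 5.98% of CHIR-closed, 3.26% of CHIR-opened and 2.14% of KO-closed regions. CACCTG was in 48% of CHIR-closed and 41% of KO-opened regions, and in 15.3% of CHIR-opened and 23.2% of KO-closed ones. CHIR-opened and KO-opened regions thus shared the T-box letters, and the KO-opened regions had the highest forkhead share of the 4 sets. No test was made on motif shares, since regions of 1 library pair are not replicates.

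**Figure D3:**
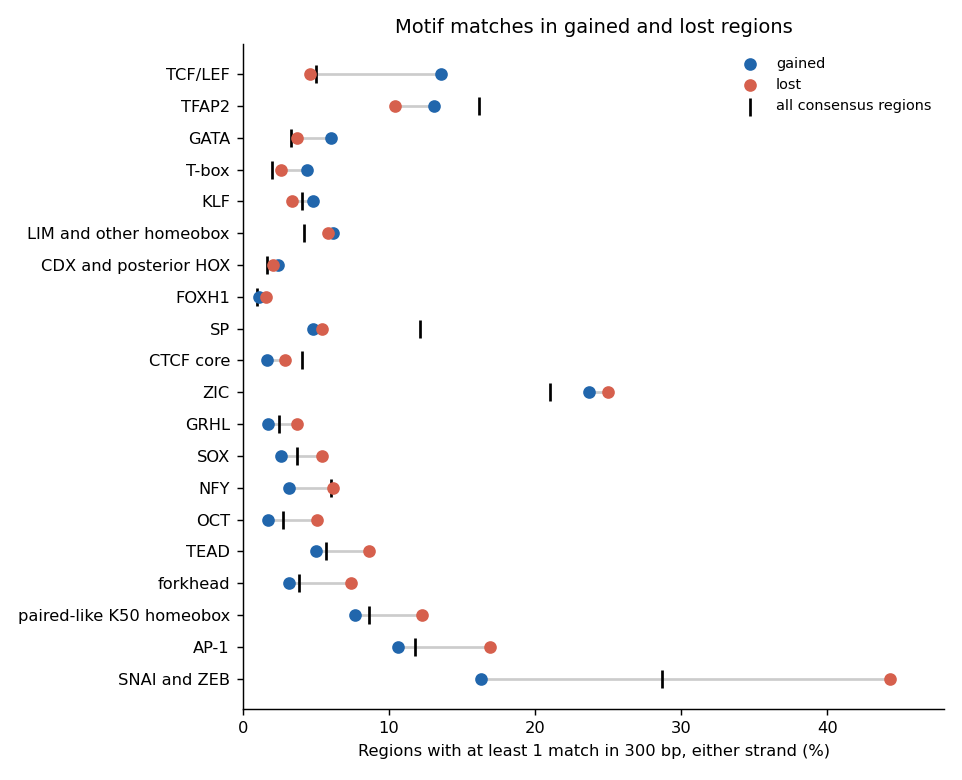
Share of gained (blue) and lost (red) regions with at least 1 match to each of 20 motifs within 300 bp (x axis, percent), with a tick for all consensus regions. CACCTG (SNAI and ZEB) is at 16.3% and 44.3%, and CTTTGAT (TCF/LEF) at 13.6% and 4.61%.

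Regions were next assigned to the nearest protein-coding TSS within 100 kb. Of 70809 assigned regions, 8.4 percent were gained and 6.23 percent lost, and of 17393 genes with a region, 22.8 percent had a gained and 20 percent a lost region. The lists held between 2.75 (Hox) and 9.67 (Wnt pathway) regions per gene, against 4.07 over all genes, so counts of genes are read beside shares of regions. Of the 20 lists, 14 had a gained share above that of all assigned regions and 11 a lost share above it. Being above that level was thus common among the lists. The nearest gene is a label of position and was not shown to be the target. In bulk libraries, fewer cells with an open region and less opening per cell cannot be told apart.

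Genes of the Wnt pathway had gained regions in 55 of 319 (17.2%) and lost regions in 23 (7.21%), in 23 and 17 of 33 genes. At Axin2, the feedback inhibitor, 7 of 20 regions were gained and 1 lost. The strongest of the 7, the one printed above, ranked 3176 and 4624 in the CHIR libraries with a fold enrichment over background of 9.04 and 9.33, ranked 60155 and 92108 in KO (4.97 and 3.11), and was absent or at rank 124092 in untreated WT. A region 47739 bp upstream ranked 38028 and 33736 with CHIR, 57170 and 69816 in KO, and 109139 and none in WT. The rule sets CHIR above KO at every gained region, so only the order of KO and WT was free. KO stood above WT at these 2 regions, and this order was not tested over the 7. A further 2 Axin2 regions were listed in neither KO nor WT libraries.

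Other Wnt genes followed. Nkd1, an inhibitor of Dishevelled, had 5 of 9 regions gained, and Fzd10, a Frizzled receptor, 5 of 13 with 1 lost. The strongest Fzd10 region ranked 3253 and 10693 with CHIR, had no peak in KO 1, ranked 77172 in KO 2 and had no peak in WT. Tcf7l2 had 5 of 22 gained and Tcf7l1 4 of 21, each with 1 lost. Lef1 had 4 gained and 3 lost of 22, and its TSS-proximal region (651 bp upstream) ranked 33760 and 18833 with CHIR against 104838 and 77274 in KO. Sp5, a transcription factor that Wnt induces, had 3 of 9 gained, 2 of them within 3 kb of its TSS. Lost Wnt regions included 2 of 9 at Lgr5 and 2 of 12 at Myc, and 1 KO-opened region at Rspo3, a secreted activator. Of the 33 genes, 51 regions were CHIR-opened, 16 CHIR-closed and 3 KO-opened.

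**Figure D4:**
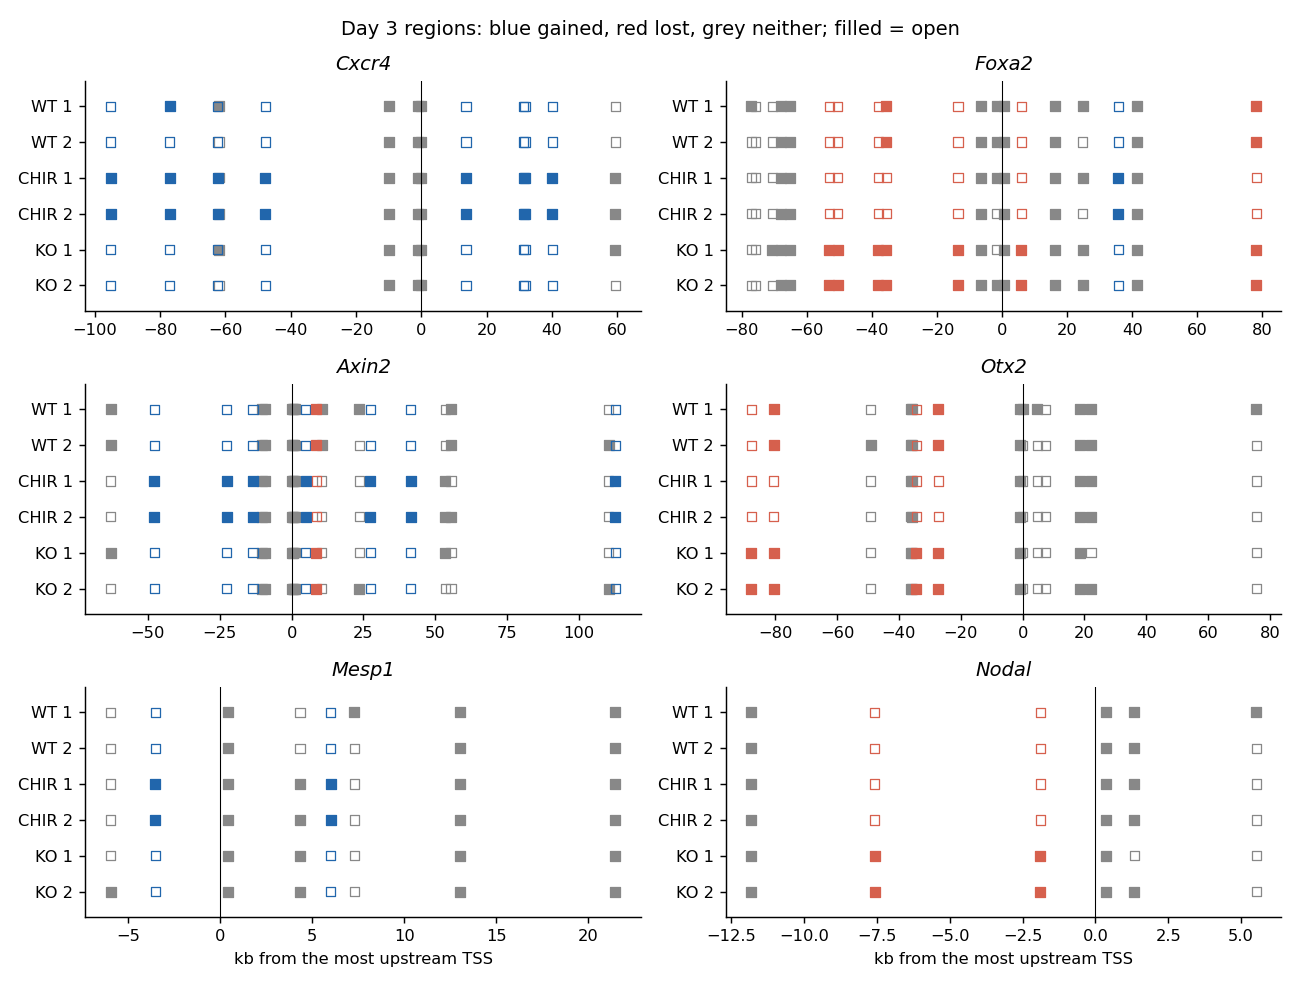
Consensus regions assigned to 6 genes by distance from the gene's most upstream TSS (x axis, kb; distances in the text are to the nearest TSS), 1 row per day 3 library of untreated WT, CHIR-treated WT and KO cells. Squares are filled where the region was open, blue where gained, red where lost and grey otherwise. Cxcr4 shows 8 gained and no lost regions, and Foxa2 7 lost and 1 gained.

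The primitive streak list had both kinds of region above the level of all genes, 22 of 160 gained (13.8%) and 18 lost (11.2%). This did not hold for the gained share of the study's own primitive streak list, given further on, with 6.72% gained and 8.82% lost. T, the T-box factor of the streak, had 2 gained and 2 lost among 10 regions. Its gained region 12621 bp upstream ranked 8393 and 5224 with CHIR, 118549 and 96119 in KO and was unlisted in WT. Its lost region 8524 bp upstream ranked 36873 and 42695 in KO and 93134 and 132081 in WT, and was unlisted in both CHIR libraries. Thus a KO-opened and a CHIR-opened region lay within the same few kilobases of T. Eomes likewise had 2 gained and 2 lost of 18.

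Other genes of streak and nascent mesoderm had gained regions only, among them Mixl1, Mesp1, Snai1 and Evx1, while Wnt3a and Wnt8a had 1 lost region each and none gained. Mixl1 had 2 of 4 regions gained and none lost, Mesp1 2 of 8 and Snai1 3 of 10. The Mesp1 region 3504 bp upstream ranked 13357 and 12719 with CHIR and 95028 in KO 1, and was unlisted in KO 2 and both WT libraries. The 3 Snai1 regions, at the gene of a repressor of E-cadherin, ranked 6575 to 14851 with CHIR and 65096 to 115837 in KO. Evx1 had a gained region 2100 bp upstream, at ranks 15585 and 28158 with CHIR.

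Lost regions lay at several anterior streak and Nodal genes, though these lists as a whole were mixed. Foxa2 had 7 of 19 regions lost and 1 gained. The lost region printed above ranked 26335 and 14570 in KO and was unlisted in the CHIR and untreated WT libraries. Another, 53074 bp upstream, ranked 4601 and 3820 in KO with fold enrichments of 10.8 and 10.4, against 61043 and 80441 with CHIR (4.86 and 4.31) and 66990 and 57212 in WT. Not all were this far apart: a Foxa2 region 4374 bp downstream ranked 50437 and 51475 with CHIR and so missed the kept set narrowly. Of the 7, 5 were KO-opened and 2 CHIR-closed.

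Nodal, the ligand, had 2 of 6 regions lost, both KO-opened, at ranks 34049 and 38460, and 41250 and 49138, in KO. The first of them ranked 50186 in CHIR 2, just outside the kept set. A KO-opened region 8563 bp upstream of Lefty1, a Nodal antagonist, ranked 44933 and 40513 in KO and was unlisted in the CHIR and WT libraries, while a CHIR-opened region lay 12722 bp upstream of the same gene. Gsc had 2 of 8 lost, and Chrd, a BMP antagonist of the node, 3 of 8, with none gained at either. Foxh1, the Nodal pathway partner of SMAD2, had its single region, at the TSS, lost. Tdgf1, the Nodal co-receptor, had a lost region 580 bp upstream. Over the Nodal list the shares were 11 of 113 gained (9.73%) and 13 lost (11.5%), with 5 gained regions and 1 lost at Smad2 and 1 gained at Lefty2.

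The node, notochord and definitive endoderm list was not uniform. It held 22 of 168 gained (13.1%) and 17 lost regions (10.1%). Cxcr4, a chemokine receptor of endoderm and nascent mesoderm, accounted for 8 of the gained regions and had none lost. Of the 8 Cxcr4 regions, 7 were closed in both untreated WT libraries, and the strongest by its poorer rank stood at 14561 and 12122 with CHIR, 118847 in KO 1 and none in KO 2. Lhx1 had 4 of 14 gained and Foxa1 2 of 9, with none lost at either. Foxa2, Gsc and Chrd made up 12 of the 17 lost regions.

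Mesoderm genes showed the widest gap of the 20 lists, with 35 of 175 regions gained (20%) and 5 lost (2.86%). Gained regions lay near 15 of 26 genes, lost near 5. Foxc1, a factor of paraxial mesoderm, had 6 of 15 gained, 5 of them unlisted in both untreated WT libraries, and 1 lost. Hand1, of lateral and extraembryonic mesoderm, had 5 of 13, the strongest at ranks 8446 and 20194 with CHIR and unlisted in KO and WT. Aldh1a2, the retinoic acid synthase of mesoderm, had 3 of 5, all unlisted in both WT libraries. Of the 35, 33 were CHIR-opened and none KO-closed.

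Posterior and neuromesodermal genes had 21 of 132 regions gained (15.9%) and 7 lost (5.3%), and none of the lost regions was KO-opened. The regions at the TSS were prominent. Tbx6, the switch to paraxial mesoderm, had a region 199 bp upstream at ranks 22859 and 37930 with CHIR, unlisted in both KO and both WT libraries. That of Msgn1, 221 bp upstream, ranked 22655 and 17395 with CHIR, 107402 in KO 1 and was unlisted in KO 2 and WT. Gained regions within 3 kb of the TSS also lay at Hes3, Hes7, Nkx1-2, Wnt5a and others. At Nkx1-2 and at 1 of 2 Hes3 regions untreated WT was open too, so the difference lay with KO. Wnt3a and Dll3 had a lost region within 3 kb.

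The Hox list had 13 of 88 regions gained (14.8%) and 2 lost (2.27%). Hoxd3 had 4 of 6 gained, at ranks 23642 to 41480 with CHIR and no better than 51732 in KO. Gained regions near Hoxb1, Hoxd4, Hoxa7 and Hoxc10 lay within 3 kb of the TSS, while Hoxb2 and Hoxb9 each had a region within 3 kb of the TSS lost. Anterior and posterior members were thus both among the gained. Neighbouring Hox genes share regions by position, so a region counted for 1 gene may lie nearly as close to the next.

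FGF and retinoic acid genes were also mostly on the gained side. The FGF list had 19 of 133 regions gained (14.3%) and 4 lost (3.01%), and the retinoic acid list 17 of 116 (14.7%) and 4 (3.45%). Fgf15, Fgf3 and Dusp6 (an ERK phosphatase induced by FGF) had 2 gained regions each and none lost, and Spry4 and Fgfr1 had 3. Stra6, a retinol transporter, had 3 of 7 gained, all within 3 kb of the TSS. Cyp26b1, which degrades retinoic acid, had 3 of 15. Dhrs3 was split, with 2 gained and 2 lost. The BMP list had 18 of 170 gained (10.6%) and 12 lost (7.06%), with 2 lost regions at Bmp2, both KO-opened, and 3 gained and 1 lost at Bmp7.

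Formative and primed pluripotency was the list most on the lost side, with 24 of 173 regions lost (13.9%) and 11 gained (6.36%), near 13 and 8 of 20 genes. Otx2, a homeobox factor of epiblast and anterior neuroectoderm, had 4 of 14 lost and none gained. The lost region 27269 bp upstream ranked 25095 and 27457 in KO and 5600 and 16612 in WT, against 88243 and 128196 with CHIR. Another, 87659 bp upstream, ranked 40328 and 46603 in KO and was unlisted in CHIR and WT. So Otx2 held both CHIR-closed and KO-opened regions, 2 of each. Sox3, a SOXB1 factor, had 2 of 5 lost, 1 at the TSS at ranks 36040 and 26051 in KO against 64631 and 60972 with CHIR.

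Utf1, a chromatin factor of pluripotent cells, had 2 of 6 regions lost, and Sox11 2 of 10. Grhl2, which keeps epithelial identity, had 4 of 22 lost and 1 gained, and its printed region ranked 9019 and 10010 in KO, 8573 and 16430 in WT and 87914 and 65515 with CHIR. Pou5f1 had its promoter region (39 bp upstream) lost, at ranks 37238 and 35106 in KO and 131116 and 102576 with CHIR. The naive list was near the level of all genes, with 9 of 131 gained (6.87%) and 8 lost (6.11%). The lost share was thus raised on the formative rather than the naive list. Of the formative lost regions, 15 were CHIR-closed and 6 were KO-opened, so they were not all closed by CHIR relative to untreated WT.

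Neuroectoderm genes did not separate the 2 states by share, with 18 of 267 regions gained (6.74%) and 17 lost (6.37%). The gained regions were concentrated at Irx3, a homeobox factor also of posterior neural plate and mesoderm, with 6 of 9 and none lost. Its strongest ranked 3098 and 3796 with CHIR, 59109 and 74399 in KO and none in WT. Neural crest and surface ectoderm had 20 of 199 gained (10.1%) and 17 lost (8.54%). Grhl3, a surface ectoderm factor, had 4 of 12 gained and none lost, and Snai2 2 of 4 lost and none gained.

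**Figure D5:**
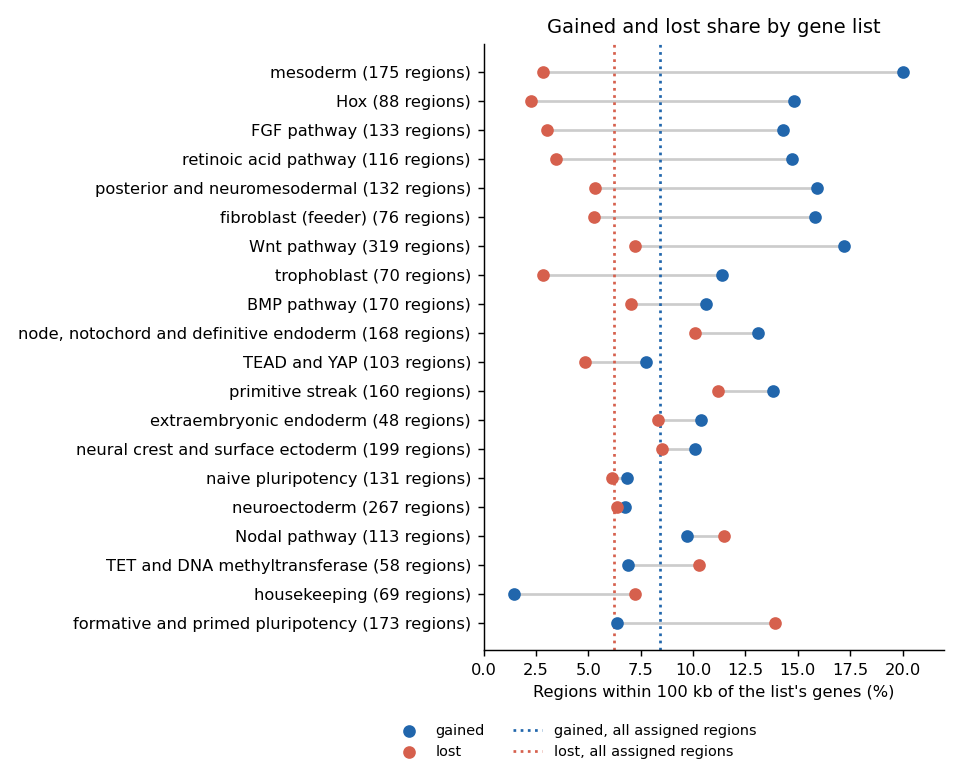
Share of the regions within 100 kb of each list's genes that were gained (blue) or lost (red) (x axis, percent), lists ordered by the difference. Dotted lines give all assigned regions, 8.4% gained and 6.23% lost. Mesoderm is at 20% and 2.86%, and formative and primed pluripotency at 6.36% and 13.9%.

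Markers of other cells were read the same way. Fibroblast genes, which mark residual feeders, had 12 of 76 regions gained (15.8%) and 4 lost (5.26%), in 7 and 4 of 13 genes with a region. The gained ones included 3 at Sparc and 2 each at Col1a2, Col5a1 and Pdgfrb, which mesoderm also uses, and 8 of the 12 were CHIR-opened. Sparc and Pdgfrb also had 1 lost region each, and Prrx1 had a lost region and no gained one. The part of feeder cells in the mesoderm-side counts was not tested. Trophoblast genes had 8 of 70 gained (11.4%), 5 of them at Hand1, and 2 lost. Extraembryonic endoderm had 5 of 48 gained (10.4%) and 4 lost (8.33%). TEAD and YAP genes had 8 (7.77%) and 5 (4.85%), with 3 lost at Ccn2, and TET and DNA methyltransferase genes 4 of 58 (6.9%) and 6 (10.3%). Housekeeping genes had 1 of 69 gained (1.45%) and 5 lost (7.25%).

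The study's supplement holds 12 lineage marker lists, which were read in the same way. Regions were gained and lost in 17.4% and 6.09% for mesoderm, 15.1% and 6.58% for extraembryonic mesoderm, and 11.1% and 5.03% for neuromesodermal progenitors. For epiblast the shares were 5.11% gained and 10.4% lost, and for primitive streak 6.72% and 8.82%. The shares were 10.1% and 3.57% for ectoderm, 10.9% and 6.25% for endoderm, 8.76% and 5.45% for visceral endoderm and 7.74% and 6.06% for extraembryonic ectoderm. Epiblast and primitive streak were thus the only 2 of 12 atlas lists with more lost than gained regions.

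Across all genes, those with the most gained regions were Tenm4 with 15 of 47 and Gse1 with 13 of 51, followed by Kif6, Prex1 and Rnf220 with 9 each and Ctnnbl1, Cxcr4, Gabbr2, Lingo1, Nectin1 and Tns1 with 8 each. Among these genes, and not over all genes, Ctnnbl1 and Cxcr4 had the highest share, 61.5% of 13 regions each, then Kif6 with 56.2% of 16, and Kif6, Rnf220, Ctnnbl1, Cxcr4 and Gabbr2 had no lost region. Those with the most lost regions were Med13l with 8 of 23 and Foxa2, Foxn3, Nav2 and Pde4d with 7 each. Cacnb2, Tgfbr3 and Lpp had 6 each, Trim33, Utrn and Elmo1 5, and Znfx1 4 of 7. Lost regions were less concentrated, and at Lpp (6 of each) and Elmo1 (5 of each) both directions were equal. Genes with many regions lead such an order.

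The strongest regions without any deposited peak in the closed state gave a further view. The gained region ranked highest by its poorer rank lay between genes on chromosome 11 (chr11:34973444-34973761), beyond 100 kb from the nearest TSS, at ranks 1723 and 925 with CHIR and unlisted in all 14 other libraries. Regions in an intron at Dock1 (2539 and 3161), near Tln2 (3352 and 3583), between genes on chromosome 3 (2122 and 4066) and in an intron at Gabbr2 (2369 and 4322) were also unlisted elsewhere, except for 1 weak peak in a day 2 MUT library at Dock1. A region on chromosome 18 of like strength was listed in all 12 libraries outside the comparison. The lost regions of this kind ranked lower and were listed in other libraries too. One in an intron nearest Rad51b ranked 7173 and 16273 in KO and 5369 and 47095 in untreated WT. That upstream of Esrrg ranked 19029 and 18901 in KO, 78461 and 61678 in WT and 42107 and 50275 with XAV.

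The submitters' differentially accessible regions (DARs) between KO and WT on day 3 place the comparison beside the Tet1-dependent loci. They were chosen on the KO and untreated WT libraries, so only the CHIR values are independent. Of 1077 open-in-KO DARs, 69.5% and 65.9% were open in the CHIR libraries and 85.1% and 63% in KO. In untreated WT on day 3 the shares were 5.01% and 5.76%. All 4 CHIR and KO libraries were open at 440 of these DARs (40.9%), 155 (14.4%) were lost and 73 (6.78%) gained. Over all consensus regions 6.73% were lost and 9% gained. The number of gained DARs depended on the intervals kept, with 132 at 30000, 9 at 100000 and 2 with every peak. Of 920 close-in-KO DARs, 30.7% were open in each CHIR library and 29.3% and 32.1% in KO, and 463 (50.3%) were open in none of the 4. Untreated WT on day 3 had 89.1% and 83.5% of the close-in-KO DARs open. Of these DARs 73 (7.93%) were gained and 72 (7.83%) lost, beside the 9% and 6.73% of all consensus regions.

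The open-in-KO DARs that were lost, open in KO and closed with CHIR, included 3 at Foxa2 and 1 each at Lefty1, Otx2, Bmp2, Rspo3, Dhrs3, Tcl1 and Gata6. Those that were gained included 1 each at Axin2, Fgf8, Mesp1, Irx3, Foxj1 and Prdm14. The gained ones were listed as opened in KO by the submitters yet missed the kept set in both KO libraries here. At Fgf8 the region ranked 24514 and 23819 with CHIR, 69989 and 111660 in KO and none in WT. The Axin2 DAR met a region 13429 bp upstream of the TSS, at ranks 21054 and 13038 with CHIR, 95762 in KO 1 and none in KO 2 or WT, and the Mesp1 DAR met the region 3504 bp upstream given above. These were the DARs near genes of the lists that fell in either class, with Tet1 and Tdh (gained) and Fzd7 (lost) among the close-in-KO DARs.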

How the data were processed

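ATAC-seq peak lists of 16 libraries in 8 groups were used, with a list of differentially accessible regions (DARs) of day 3. Reads were processed by the authors with the ENCODE ATAC-seq pipeline (trimming, alignment, deduplication, removal of mitochondrial reads, Tn5 shift, peak calling and blacklist filter) on mm10. The deposited lists give for each peak a fold enrichment over background, a −log10 p and a −log10 q, made by the authors' peak caller per library. The DARs were called by the authors with DiffBind 3.0.15 and are coordinates only. The lists of replicate 2 on day 2 are named as merged. Read counts were not used, so depth is known only through the peaks.

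Duplicate intervals were collapsed and the 50000 with the highest −log10 p kept per library. Consensus regions joined windows of 150 bp on either side of the summits that at least 2 libraries held. Genes and transcription start sites came from GENCODE M21 and sequence from RefSeq's GRCm38.p6. Occupancy was compared by two-sided exact permutation over libraries, with Benjamini-Hochberg adjustment over 4 tests (Python 3.11.15, scipy 1.17.1), and the scripts were tested on simulated data. Named genes were the 12 with the most gained and the 12 with the most lost regions, and genes of the 20 lists with at least 2 gained or 2 lost regions or a called region within 3 kb of a start site. Lefty1, Rspo3 and Fgf8 fell outside this rule and were named after their values were seen. A gene and a sequence that the rules chose are not reported here. The members and lists were chosen with earlier results of these data known. The lines WT70, WT72, CM59 and CM69 were each sampled on both days, which pairs these libraries. Deviations from the group means correlated by 0.0266 (WT) and 0.00692 (MUT).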

Additional observations from a re-analysis of the deposited data

Results flagged for a closer look

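Among the 4 libraries of KO lines outside the comparison, the second KO library of day 2 (KO15) had the lowest share of lost regions open, 60.7%, while the highest of the 4 was 66.4%. Its gap to the nearest of the others was 0.968 of the range of the 4, above the critical value of 0.829. About 1 in 20 groups passes this value by chance.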

How the results depend on the processing

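The number kept per library set the counts. With 30000 intervals 7372 regions were called (4205 gained, 3167 lost), with 100000 intervals 23133 (13789 and 9344), with every peak of −log10 q of at least 2 22392 (15774 gained), and with every deposited peak 29714 (17778 and 11936). Where closed meant no deposited peak, 2546 were called (2199 and 347). Gained exceeded lost in each of these. With 1 of the 4 libraries left out, 15829 to 18802 were called, 8424 to 9839 gained and 7380 to 8963 lost. Without KO 2, the library with the fewest intervals, gained (8668) no longer exceeded lost (8849). The lost count passed 1.5 times its value without KO 1 (8963) or KO 2 (8849), where 1 KO library defined open. Without CHIR 1 or CHIR 2, where 1 CHIR library defined open, gained numbered 8449 and 8424 and did not pass this limit.

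The tests of occupancy stayed above an adjusted p of 0.05 under all alternatives, and several differences changed sign. Settings with 15 assignments could not pass 0.05. These were the genotype tests within day 2 or day 3 alone and the day tests without replicate 2 of day 2. The genotype difference at lost regions was -0.00464 points when intervals were ranked by fold enrichment, and -0.399 to 1.69 with 1 library left out, below 0 without the first KO library of day 2 (-0.165), either XAV library (-0.171 and -0.226) or the second WT library of day 2 (-0.399). At gained regions it was 0.641 with −log10 q of at least 2 and 1.77 with every peak, and -1.7 to -1.2 with 1 library left out. The day difference at lost regions was -7.23 and -5.24 in those settings and 1.68 to 3.81 with 1 library left out. At gained regions it was -5.28 and -3.8, -0.0207 without replicate 2 of day 2, and -0.295 to 0.863 with 1 library left out, below 0 without either MUT library of day 2 (-0.0827 and -0.202) or the first WT library of day 3 (-0.295). The cause was not tested.

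With days exchanged only within a line (replicate block, chosen after seeing the data), the day difference was 2.81 points at lost (exact permutation p = 0.125, higher on day 3 in 4 of 4 lines) and 0.183 at gained regions (exact permutation p = 0.75). With 16 assignments no p below 0.125 can be reached, so this test could not pass 0.05. With the mean of each line, also added later, the genotype differences gave exact permutation p = 0.933 (0.281 points) and 0.2 (-1.43 points). This test had 15 assignments and could not pass 0.05 either, and it counted the MUT clones of WT7 as separate lines. The split of motifs by untreated WT was added later too. No paired analysis of CHIR against KO was possible because the littermate of each line was not stated in the sources used and the calls come from no test.

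Of the open-in-KO DARs, gained numbered 132, 9 and 2 with 30000, 100000 and every interval, and lost 84 and 36 with the latter 2. Of the close-in-KO DARs, 39 were lost with 30000 and 39 gained with every interval.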
